A study of Homo sapiens with 105 samples.

Results

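The BCL2 family of apoptosis regulators was followed in vaginal epithelial cells through 10 genes: BCL2A1, BCL2L1, MCL1, BCL2, BCL2L11, PMAIP1, BBC3, BAX, BAK1 and BIK. Members were all probesets that the platform annotation assigns to 1 of these genes, which gave 29 of the 54613 probesets of the array that are not controls. A probeset is a set of short probes that together report 1 transcript or group of transcripts. Of these, 28 name 1 gene alone and cover 9 genes. The only probeset of BBC3 (211692_s_at) also names the microRNA genes MIR3190 and MIR3191, so its values cannot be given to BBC3 and are described as those of a shared probeset.

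Proteins of the BCL2 family decide at the mitochondrion whether a cell lives or undergoes apoptosis. BCL2A1, BCL2L1 (as its long form BCL-XL), MCL1 and BCL2 hold the outer mitochondrial membrane closed, BAX and BAK1 open it, and the BH3-only proteins BCL2L11 (BIM), PMAIP1 (NOXA), BBC3 (PUMA) and BIK carry stress signals to both. In epithelia the balance between these groups sets how long a damaged or infected cell remains in the layer, and several members are textbook target genes of NFκB, of the ATF4 and DDIT3 stress factors or of p53.

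The cells were Vk2/E6E7, a human vaginal epithelial line immortalized with the E6 and E7 genes of a papillomavirus, of which E6 is known to direct p53 to degradation, so that all groups share this background. RNA was taken 6 h after growth medium alone (GM, 53 arrays used) or after medium with 40 ng/ml of the cytokine TNF-α (5), 10 μg/ml of the TLR2 ligand Pam3CSK4 (6), 200 ng/ml of the TLR2 ligand MALP2 (6), imiquimod (IMQ, a TLR7 ligand, 6), 12.5 μg/ml of the detergent nonoxynol-9 (N-9, 9), or 1 mg/ml of the cellulose gels hydroxyethylcellulose (HEC, 9) or CMC (9). The dose of imiquimod is 30 mg/ml in the sample labels, while the methods of the study give the same figure in μg/ml. The first 5 compounds were used by the study as pro-inflammatory compounds (PICs) and the gels as non-inflammatory compounds (NICs).

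Values are log2 signals, quantile normalized over 103 arrays, and a difference of 1 is a 2-fold change. A difference passed where limma's moderated test gave an adjusted p (Benjamini-Hochberg over all 54613 probesets) under 0.05. A gene was read from its brightest probeset, the one with the highest mean over the arrays, unless another is named, and levels of different probesets are not compared. The 2 arrays left out were GM replicate 52, which correlated at most at r = 0.0493 with any other array while all other pairs reached at least 0.836, and TNF-α replicate 6, which equals the mean of TNF-α replicates 1 to 3. The medians of the deposited arrays lay between 6.21 and 7.08. The labels call each array a biological replicate but do not describe which arrays came from separate cultures. Each p-value reflects array-to-array spread, part of which could be technical. Arrays with 3 consecutive numbers in a group, here called a run, resembled each other (consensus correlation 0.438). Where a call against GM was lost in a fit with runs as a random block, here called the block fit, that adjusted p is given. Direct tests between treatments were not run in the block fit, so whether their calls hold there is not known. The 7 squamous markers had GM means from 9.66 (KRT13) to 14.71 (KRT14), and of 8 leukocyte markers none had a mean over 8 in any group, with PTPRC at 4.31 in GM. Of these, CD3D was higher with N-9 (5.69 against 4.56 in GM) and CD14 and CD3D were lower with imiquimod (5.45 against 7.04, and 3.17 against 4.56), calls that were lost in the block fit (adjusted p from 0.159 to 0.475). The summed linear signal of the 8 markers ranged from 509 to 1558 in GM, 487 to 1636 with N-9 and 563 to 711 with imiquimod, and their part in the results was not tested. Of 9 markers of fibroblasts and endothelium 2 had a GM mean over 8, COL1A1 at 10.83 and PECAM1 at 8.19, while VWF, CDH5, PDGFRB and COL3A1 lay between 3.39 and 4.46. None of the 9 passed with any treatment, their summed linear signal ranged from 1238 to 5583 in GM, 1547 to 2158 with N-9 and 2868 to 4771 with Pam3CSK4, and their part was not tested either. GM replicate 15 stood apart at BCL2A1 (10.52) and was the highest GM array for CCL20, TNFAIP3 and OLR1 as well. It was not the highest for CXCL8, where it stood at 11.98 and another GM array at 13.24. BCL2A1 is therefore also given without replicate 15.

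The stretches of 250 bases upstream of the start sites are shown for the 3 genes on which most of the results turn, BCL2A1, which rose with 4 compounds, and BCL2L11 and PMAIP1, which rose together with N-9. They are from RefSeq on GRCh38.p14, at chr15:79971197-79971446 (minus strand), chr2:111120664-111120913 (plus strand) and chr18:59899746-59899995 (plus strand), and run 5′ to 3′ toward the start. Capitals mark matches on either strand to an NFκB-type motif (GGG, any 5 bases, CC), an AP-1 motif (TGANTCA) or the CRE half-site (TGACG) that ATF factors can bind.
BCL2A1: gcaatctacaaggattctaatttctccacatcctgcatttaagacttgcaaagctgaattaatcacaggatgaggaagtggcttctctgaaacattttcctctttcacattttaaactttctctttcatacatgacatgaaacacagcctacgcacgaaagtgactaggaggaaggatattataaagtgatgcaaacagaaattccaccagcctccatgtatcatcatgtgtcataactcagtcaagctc
BCL2L11: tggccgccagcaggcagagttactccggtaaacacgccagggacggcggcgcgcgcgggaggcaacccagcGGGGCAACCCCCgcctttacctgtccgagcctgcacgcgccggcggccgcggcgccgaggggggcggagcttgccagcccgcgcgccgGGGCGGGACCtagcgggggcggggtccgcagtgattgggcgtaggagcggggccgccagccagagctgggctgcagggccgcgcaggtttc
PMAIP1: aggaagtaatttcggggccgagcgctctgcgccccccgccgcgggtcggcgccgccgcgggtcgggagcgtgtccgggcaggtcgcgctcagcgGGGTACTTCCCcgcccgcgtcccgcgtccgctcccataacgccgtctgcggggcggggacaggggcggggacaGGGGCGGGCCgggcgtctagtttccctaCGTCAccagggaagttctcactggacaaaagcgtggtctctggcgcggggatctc

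The BCL2A1 stretch held none of the 3 motifs. That of BCL2L11 held 4 matches to the NFκB-type motif, 3 of which overlap each other, and no other motif. That of PMAIP1 held 3 matches to the NFκB-type motif, 2 of them overlapping, and 1 CRE half-site that begins 55 bases before the start. Among 35116 promoter stretches of the same length, 54.4% held the NFκB-type motif, 6.57% the AP-1 motif and 21.2% the CRE half-site. Of the 9 stretches listed for members, 5, 1 and 4 held them. A match describes the letters of this window and is not evidence of binding.

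Over all 29 probesets and 7 treatments, 26 of 203 differences passed, and 18 of these also passed in the block fit. Of all probesets 17.4% passed with N-9, 10.9% with imiquimod, 6.95% with MALP2 and 2.17% with Pam3CSK4. The shares were 0.793% with HEC, 0.721% with TNF-α and 0.00183% with CMC, and none of these shares is from the block fit. BCL2A1 held the largest difference of the family with MALP2, Pam3CSK4, TNF-α and imiquimod. With N-9, BCL2L11, PMAIP1 and BCL2L1 rose, BAK1 fell, and BCL2A1 did not pass. Against GM replicates 1 to 9 alone the N-9 calls of BCL2L1 (0.41, limma adjusted p = 0.219) and BAK1 (-0.26, 0.325) were lost. BCL2 was lower with N-9 by a difference that passed but was lost in the block fit (adjusted p = 0.239). MALP2, Pam3CSK4, TNF-α and imiquimod are here called the immune stimuli. Of the 9 genes, N-9 changed 5, where 19.9% of all 19775 genes so read passed. MALP2 changed 2 (9.6% of all genes), Pam3CSK4 2 (3.19%), TNF-α 1 (1.01%), imiquimod 1 (13.9%), HEC 1 (0.834%) and CMC 0 (0%). In the block fit N-9 changed 4, Pam3CSK4 1 and HEC 0 of the 9 genes. Against GM replicates 1 to 9 alone N-9 changed 3 (BCL2L11, PMAIP1 and BAX), CMC 1 and HEC 0, and each immune stimulus 3 or 4. The shares of all genes given here are not from these fits. With CMC, BCL2A1 alone had an unadjusted limma p under 0.05. With imiquimod the members' share of 11.1% was below that of all genes, and with N-9 their share of 55.6% was above it. Of the 29 probesets 14 passed with N-9, against 17.4% of all probesets. Genes that also changed more than 2-fold were BCL2A1 with the 4 immune stimuli and BCL2L11 and PMAIP1 with N-9, against 3.36% of all genes with N-9, 3.53% with imiquimod, 2.56% with MALP2, 1.03% with Pam3CSK4, 0.536% with TNF-α, 0.263% with HEC and 0% with CMC.

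**Figure D1:**
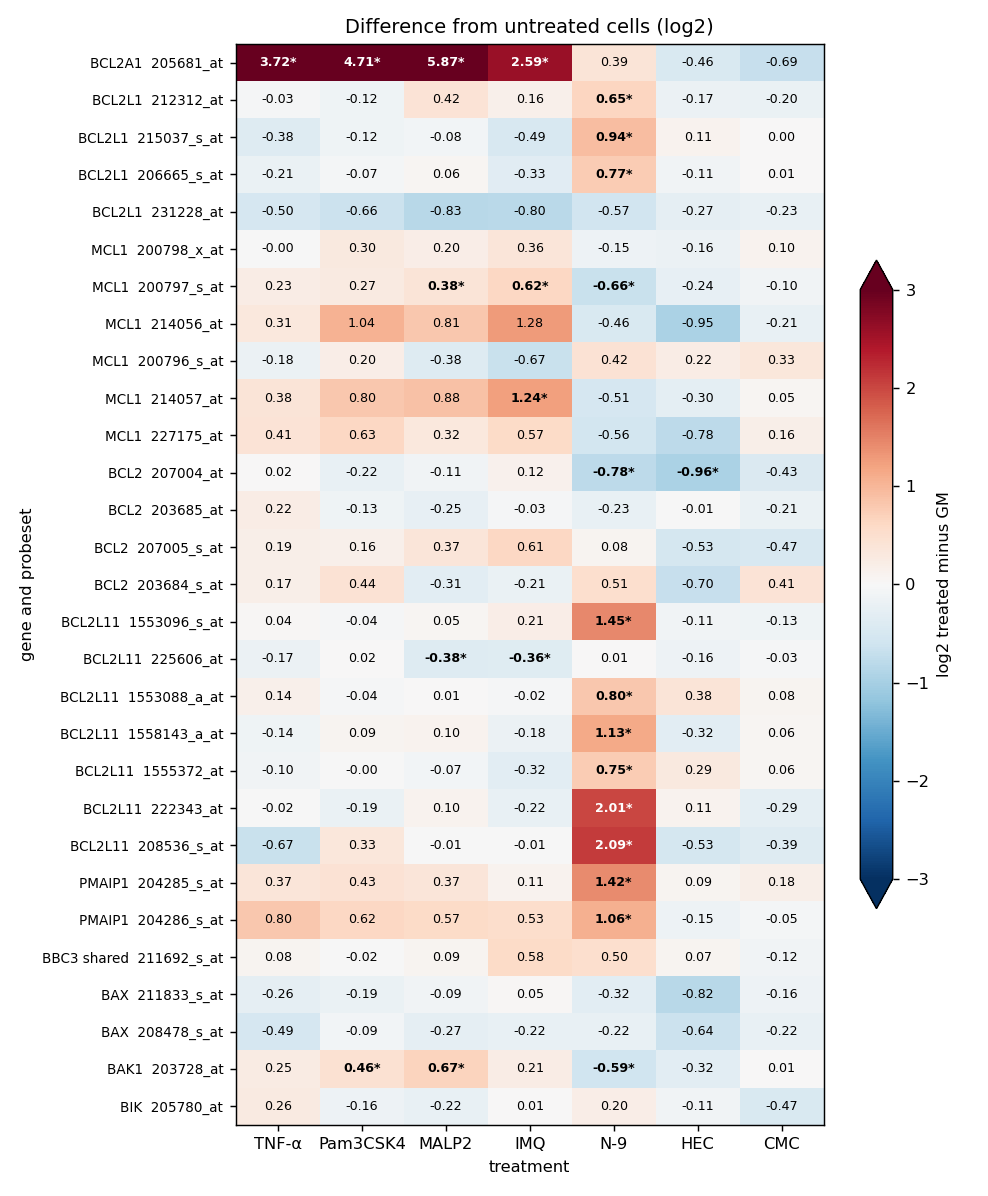
Log2 difference from GM for each of the 29 probesets (rows, by gene) and the 7 treatments (columns), with the value printed in each cell and an asterisk where it passed (limma, adjusted p under 0.05). The color scale ends at 3 in either direction. The first row, BCL2A1, holds the 4 largest values, from 2.59 to 5.87, and the N-9 column holds most of the remaining asterisks.

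BCL2A1 encodes an inhibitor of apoptosis best known from blood cells, where NFκB turns it on, and it was the member with the widest range of group means (6.56 on the log2 scale). Its only probeset rose with all 4 immune stimuli. In RNA pooled from a whole culture, more RNA per cell and more cells that carry the RNA cannot be told apart. In the 53 GM arrays the log2 signal was lowest at 4.97, had a median of 6.51 and was highest at 10.52, in replicate 15, and the next highest GM array was at 7.76. The TNF-α arrays stood at 10.77, 10.59, 10.67, 9.51 and 9.39, the Pam3CSK4 arrays ran from 10.77 through a median of 11.16 to 11.55, and the MALP2 arrays from 12.26 through 12.27 to 12.64. All of these lay above every GM array other than replicate 15, and all Pam3CSK4 and MALP2 arrays lay above that one as well.

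With imiquimod BCL2A1 stood at 8.52 at the lowest, 9.04 at the median and 9.69 at the highest. None of these 6 arrays reached GM replicate 15, and all 6 were above every other GM array. Replicates 1 to 3 had a mean of 9.51 and replicates 4 to 6 a mean of 8.60, so the 2 runs did not overlap. The TNF-α runs differed likewise, at 10.67 and 9.45.

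Against GM, the difference was 3.72 (SE 0.380, n = 5 TNF-α arrays) or 13.2-fold with TNF-α, at a limma adjusted p of 2.66e-12. With Pam3CSK4 it was 4.71 (SE 0.350, n = 6) or 26.2-fold, at a limma adjusted p of 1.72e-19. With MALP2 it was 5.87 (SE 0.350, n = 6) or 58.5-fold, at a limma adjusted p of 4.82e-26. Imiquimod gave the smallest rise of the 4, 2.59 (SE 0.350, n = 6) or 6.00-fold, at a limma adjusted p of 9.88e-09. Without GM replicate 15 the differences were 3.80, 4.79, 5.95 and 2.66, in the same order, and over every alternative run the 4 rises passed, with adjusted p at most 3.90e-05.

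BCL2A1 did not pass with the detergent or the gels. The N-9 arrays spanned 6.06 to 7.85 with a median of 6.73, the HEC arrays 4.90 to 7.03 with a median of 5.97, and the CMC arrays 2.62 to 6.96 with a median of 6.25, so that all 3 groups overlapped GM. The differences were 0.39 with N-9 (limma adjusted p = 0.406), -0.46 with HEC (0.445) and -0.69 with CMC (0.632). CMC replicate 3, at 2.62, lay far below the other CMC arrays.

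**Figure D2:**
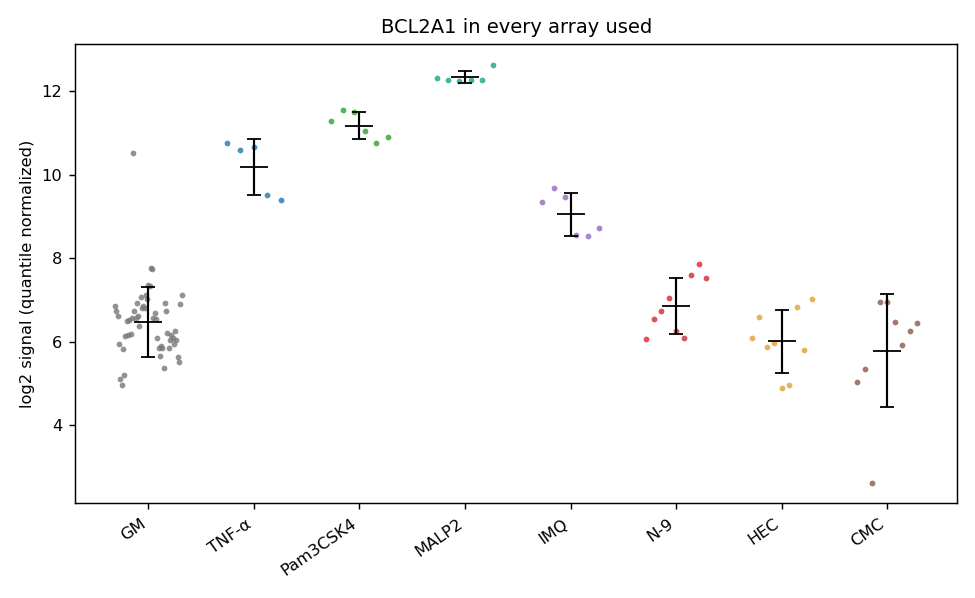
BCL2A1 (log2 signal, quantile normalized) in each of the 103 arrays, as points in order of replicate number within a group, with the group mean and SD as a black bar. The arrays of TNF-α, Pam3CSK4, MALP2 and IMQ lie between 8.52 and 12.64, and GM replicate 15, at 10.52, is the only GM array above 7.76.

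Ordered by group mean, BCL2A1 stood at 12.34 with MALP2, 11.18 with Pam3CSK4, 10.18 with TNF-α, 9.05 with imiquimod, 6.86 with N-9, 6.47 in GM, 6.00 with HEC and 5.78 with CMC. Direct limma tests, adjusted over all probesets for each of 11 pairs of treatments and not run in the block fit, did not separate the neighbors at the top. MALP2 exceeded Pam3CSK4 by 1.16 (95% interval 0.23 to 2.09, adjusted p = 0.498), Pam3CSK4 exceeded TNF-α by 0.99 (SE 0.492, adjusted p = 0.977), and TNF-α exceeded imiquimod by 1.13 (95% interval 0.15 to 2.11, adjusted p = 0.282). Groups farther apart did differ: MALP2 exceeded TNF-α by 2.15 (adjusted p = 0.0207) and imiquimod by 3.28 (5.12e-07), and Pam3CSK4 exceeded imiquimod by 2.12 (0.00201). Imiquimod in turn exceeded N-9 by 2.20 (limma adjusted p = 0.000119). HEC and CMC differed by 0.22 (95% interval -0.54 to 0.98, adjusted p = 0.942). The compounds were given at different doses. Of all 19775 genes, 0% differed between TNF-α and Pam3CSK4, 0.329% between Pam3CSK4 and MALP2, 0.364% between TNF-α and MALP2 and 0% between the gels. Imiquimod differed from MALP2 in 2.92%, from TNF-α in 3.2% and from Pam3CSK4 in 3.96%. N-9 differed from TNF-α in 8.57%, from imiquimod in 11.7%, from Pam3CSK4 in 13.7% and from MALP2 in 15.4%. Of the 9 members, 4, 4, 5 and 4 differed in these last 4 comparisons.

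The genes whose 8 group means followed those of BCL2A1 most closely, among 6725 genes whose group means span at least 1, were IL36G (Pearson r = 0.996), COXFA4L3 (0.994), WFDC5 (0.975), LINC01127 (0.975) and SMURF2 (0.974). IL36G encodes an epithelial cytokine of the interleukin-1 family, WFDC5 a whey acidic protein family member and SMURF2 a ubiquitin ligase. These correlations describe 8 group means of the same arrays.

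BCL2L1 encodes BCL-XL and, by alternative splicing, the short pro-apoptotic BCL-XS, and the files do not say which form each probeset reads. It rose with N-9. GM ran from 9.32 through a median of 10.14 to 11.19, and N-9 from 10.08 through 10.99 to 11.25. The groups overlapped, with 7 of 9 N-9 arrays above the GM median and 3 above the highest GM array. N-9 replicates 1 to 6 lay between 10.99 and 11.25 and replicates 7 to 9 between 10.08 and 10.39.

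The difference of the brightest BCL2L1 probeset, 212312_at, was 0.65 (SE 0.170, n = 9) or 1.57-fold, at a limma adjusted p of 0.00267. Both 215037_s_at and 206665_s_at also rose, by 0.94 (adjusted p = 0.000378) and by 0.77 (0.0102, and 0.0769 in the block fit). The fourth, 231228_at, differed by -0.57 (limma adjusted p = 0.117), and its differences were below 0 with all 7 treatments, from -0.83 to -0.23, without passing in any. In direct tests N-9 exceeded Pam3CSK4 by 0.77 (limma adjusted p = 0.0282), the only one of the 11 pairs that passed for BCL2L1. With the immune stimuli and the gels, the 4 BCL2L1 probesets passed nowhere. Against GM replicates 1 to 9 alone none of the 3 BCL2L1 rises with N-9 passed, with differences of 0.41 for 212312_at (limma adjusted p = 0.219), 0.26 for 215037_s_at (0.633) and 0.27 for 206665_s_at (0.652).

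MCL1 encodes a short-lived inhibitor of apoptosis, and its 6 probesets did not give 1 answer. The brightest, 200798_x_at, passed with no treatment, with differences between -0.16 and 0.36. The next brightest, 200797_s_at, ran in GM from 12.02 through 12.53 to 13.34, with imiquimod from 12.80 through 13.16 to 13.72, and with N-9 from 11.63 through 11.97 to 12.13. All 6 imiquimod arrays were above the GM median and 3 above the highest GM array, while all 9 N-9 arrays were below the GM median and 6 below the lowest GM array.

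For this probeset, 200797_s_at of MCL1, the difference was 0.62 with imiquimod (SE 0.123, limma adjusted p = 8.23e-05), 0.38 with MALP2 (0.0423, and 0.215 in the block fit) and -0.66 with N-9 (SE 0.103, 3.03e-07). Against GM replicates 1 to 9 alone the N-9 difference of this MCL1 probeset was -0.31 (limma adjusted p = 0.0611, and 0.0480 with the replicate number as a block). Probeset 214057_at of MCL1 rose by 1.24 with imiquimod (limma adjusted p = 0.00969, and 0.117 in the block fit). Of 6 MCL1 probesets, 5 were above GM with imiquimod and 5 were below GM with N-9, and 200796_s_at went the other way in both, without passing. The 3′ minus 5′ signal of ACTB, a measure of RNA integrity, had a mean of 0.951 with imiquimod (0.365 to 2.17) against 0.430 in GM (0.118 to 2.05), and its part in the imiquimod results was not tested.

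BCL2, the founding member, was lower in its brightest probeset, 207004_at, with N-9 and with HEC, in calls that did not hold in the block fit. GM ran from 4.86 through 6.79 to 7.63, N-9 from 3.28 through 6.41 to 6.89 and HEC from 4.13 through 6.13 to 6.91. Most treated arrays overlapped GM, with 8 of 9 N-9 arrays and 7 of 9 HEC arrays below the GM median. The differences were -0.78 with N-9 (SE 0.242, limma adjusted p = 0.0141) and -0.96 with HEC (SE 0.242, 0.0338). The calls were lost in the block fit (adjusted p = 0.239 and 0.723) and against GM replicates 1 to 9 alone (-0.15 and -0.33, limma adjusted p = 0.858 and 0.878). Without N-9 replicate 4, at 3.28, the N-9 difference was -0.44 (limma adjusted p = 0.207), and the HEC call was lost when any of HEC replicates 1, 2, 3, 4 or 7 was left out, with limma adjusted p from 0.0557 to 0.143. The other 3 probesets of BCL2 passed nowhere, and 203684_s_at was above GM with N-9 (0.51).

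BCL2L11 encodes BIM, a BH3-only protein that can bind every anti-apoptotic member, and it rose with N-9. In the brightest probeset, 1553096_s_at, GM ran from 8.72 through 9.34 to 9.85. The 9 N-9 arrays ran from 10.02 through 10.64 to 11.93, and the groups did not overlap. The 3 runs of N-9 differed, with means of 10.52, 11.86 and 10.07 for replicates 1 to 3, 4 to 6 and 7 to 9.

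The BCL2L11 difference with N-9 was 1.45 (SE 0.121, n = 9) or 2.73-fold, at a limma adjusted p of 1.37e-17. Direct tests placed N-9 above TNF-α by 1.40, Pam3CSK4 by 1.49, MALP2 by 1.40 and imiquimod by 1.24, with limma adjusted p of at most 1.91e-07. Elsewhere the difference of 1553096_s_at from GM lay between -0.13 and 0.21. Of 7 BCL2L11 probesets 6 rose with N-9, and the 6 calls held in the block fit. The rises were 2.09 for 208536_s_at, 2.01 for 222343_at, 1.45 for 1553096_s_at, 1.13 for 1558143_a_at, 0.80 for 1553088_a_at and 0.75 for 1555372_at. Against GM replicates 1 to 9 alone 1555372_at differed by 0.29 and did not pass (limma adjusted p = 0.303), 1553088_a_at rose by 0.52 (0.0431), and the other 4 BCL2L11 rises passed at 0.93 to 2.72. Among all probesets, 7.35% rose with N-9.

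The exception among the BCL2L11 probesets was 225606_at, the second brightest, which differed by 0.01 (SE 0.0965, 95% interval -0.18 to 0.20) with N-9. GM ran from 8.31 through 8.70 to 9.46 and N-9 from 8.16 through 8.49 to 9.43. The same BCL2L11 probeset was lower with MALP2, by a difference of -0.38 (limma adjusted p = 0.0240, and 0.164 in the block fit) and with imiquimod, by -0.36 (0.0265, and 0.155 in the block fit), and neither passed against GM replicates 1 to 9 alone (limma adjusted p = 0.139 and 0.158).

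**Figure D3:**
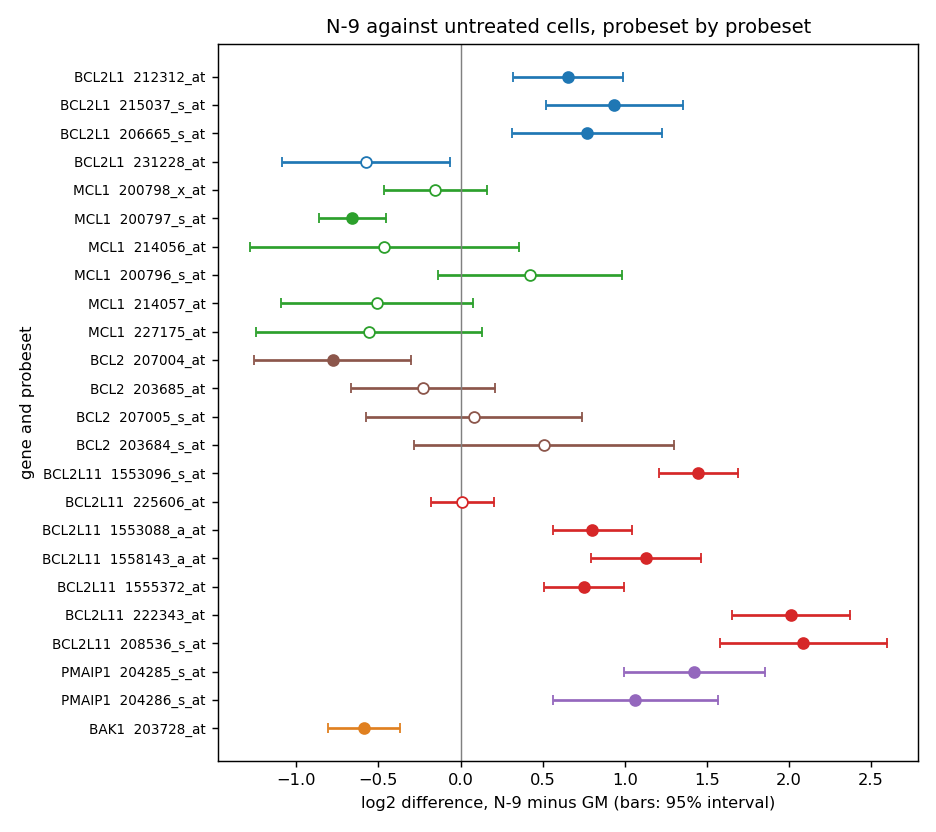
Log2 difference between N-9 and GM (horizontal axis) with its 95% interval for each probeset of 6 members, filled where it passed and open where it did not. Of 7 BCL2L11 probesets, 6 lie at 0.75 or above and 225606_at at 0.01, 3 of 4 BCL2L1 probesets lie above 0, and BAK1 lies at -0.59.

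PMAIP1 encodes NOXA, which binds MCL1 in particular and is a known target of ATF4 and p53. It rose with N-9 in both of its probesets. In 204285_s_at GM ran from 9.29 through 11.29 to 12.35, and the N-9 arrays stood between 11.28 and 13.22 with a median of 12.41. Of 9 N-9 arrays, 8 were above the GM median and 7 above the highest GM array, and replicate 2, at 11.28, lay within GM.

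The PMAIP1 difference with N-9 was 1.42 (SE 0.216, n = 9) or 2.68-fold, at a limma adjusted p of 1.47e-07, and 204286_s_at rose by 1.06 (SE 0.253, 0.000895). As for BCL2L11, replicates 4 to 6 were the highest run (mean 13.09, against 11.87 and 12.46). N-9 exceeded TNF-α by 1.05, Pam3CSK4 by 1.00, MALP2 by 1.05 and imiquimod by 1.31 (limma adjusted p from 0.00232 to 0.0336). With the other 6 treatments the 2 probesets differed from GM by -0.15 to 0.80 and did not pass, although against GM replicates 1 to 9 alone 204285_s_at passed with Pam3CSK4 (0.57, limma adjusted p = 0.0256) and MALP2 (0.52, 0.0373).

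The genes whose 8 group means were most like those of BCL2L11 were OSER1 (Pearson r = 0.980), HSPA6 (0.977), SOCS3 (0.968), RESF1 (0.966) and LOC105377143 (0.957). For PMAIP1 they were KLF11 (0.986), LOC105377143 (0.957), GADD45A (0.957), EGOT (0.952) and HTR3C (0.945). HSPA6 encodes an inducible heat shock protein, SOCS3 a feedback inhibitor of cytokine receptors, KLF11 a zinc finger transcription factor and GADD45A a growth arrest protein induced by stress and DNA damage. For both members 1 group, N-9, lay far from the other 7.

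The shared probeset of BBC3 passed with no treatment, with differences of 0.58 with imiquimod (limma adjusted p = 0.194), 0.50 with N-9 (0.131) and between -0.12 and 0.09 with the others. BIK, a BH3-only protein of the endoplasmic reticulum, passed nowhere either, with differences between -0.47 and 0.26 and limma adjusted p of at least 0.671. At an unadjusted limma p under 0.05 there were 2 of 7 differences for the shared probeset and 0 of 7 for BIK. BIK in GM ran from 7.58 through 9.01 to 10.12, and CMC replicate 1, at 5.82, was the lowest of the 103 arrays.

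The effector BAX passed with no treatment in either probeset. GM ran from 5.28 through 8.96 to 10.21 in 211833_s_at, and HEC, the group farthest from it, from 7.12 through 8.05 to 8.99. All HEC arrays lay within the range of GM. The difference with HEC was -0.82 (limma adjusted p = 0.118), those of the other treatments lay between -0.32 and 0.05, and 2 of 14 BAX differences had an unadjusted p under 0.05. The GM arrays were uneven for BAX, with a mean of 7.55 ± 1.11 (SD, n = 9) in replicates 1 to 9 and 9.21 ± 0.54 (SD, n = 44) in the others. Against replicates 1 to 9 alone, BAX was higher with imiquimod (1.42), MALP2 (1.29), CMC (1.22), Pam3CSK4 (1.19), TNF-α (1.12) and N-9 (1.06), all passing, so no direction can be given for it.

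BAK1, the other effector, moved in opposite directions with the lipopeptides and the detergent. GM ran from 9.04 through 10.19 to 10.54, MALP2 from 10.48 through 10.78 to 11.09, and N-9 from 9.24 through 9.41 to 9.97. All 6 MALP2 arrays were above the GM median and 4 above the highest GM array, and all 9 N-9 arrays were below the GM median but none below the lowest GM array.

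BAK1 rose by 0.67 with MALP2 (SE 0.131, limma adjusted p = 0.000113) and by 0.46 with Pam3CSK4 (SE 0.131, 0.0336), and fell by 0.59 with N-9 (SE 0.109, 1.61e-05). The Pam3CSK4 call did not hold in the block fit (adjusted p = 0.181) or without any 1 of Pam3CSK4 replicates 1, 2, 3, 4 and 6 (differences 0.41 to 0.50). In direct tests the 4 immune stimuli all exceeded N-9, by 1.26 with MALP2 (limma adjusted p = 1.75e-09), 1.05 with Pam3CSK4 (5.68e-07), 0.84 with TNF-α (0.000271) and 0.80 with imiquimod (0.000175). The lowest GM arrays of BAK1 were replicates 1 to 3, at 9.23, 9.04 and 9.07, and the mean of replicates 1 to 9 was 9.78 against 10.18 in the others. Against these 9 alone the N-9 difference was -0.26 and did not pass (limma adjusted p = 0.325).

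**Figure D4:**
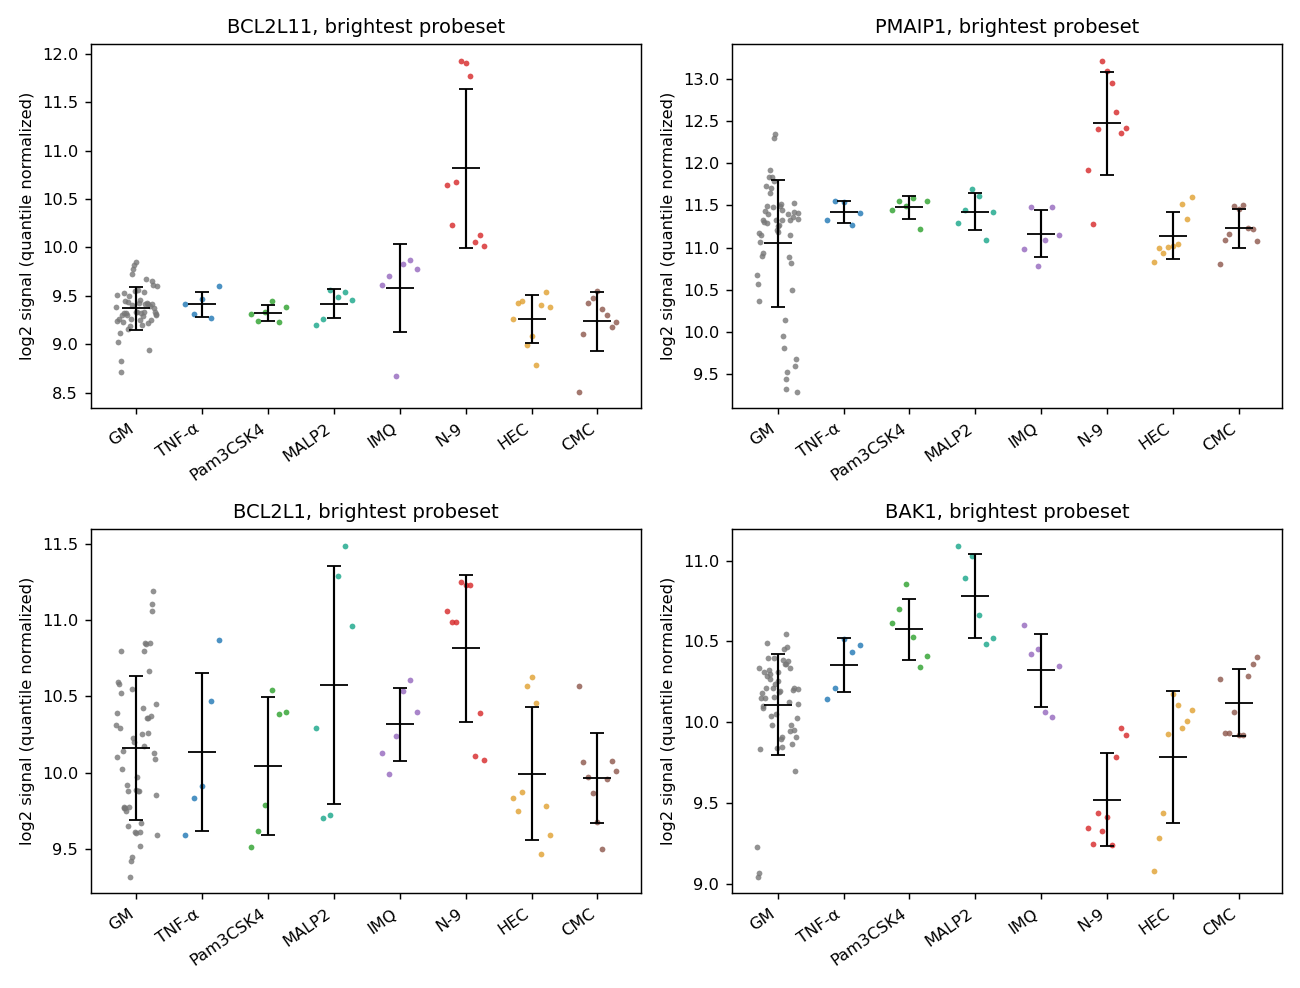
BCL2L11, PMAIP1, BCL2L1 and BAK1 in each of the 103 arrays (log2 signal of the brightest probeset, quantile normalized), as points in order of replicate number within a group, with the group mean and SD as a black bar. The N-9 arrays of BCL2L11 lie at 10.02 or above, higher than every other array, and 3 of them, replicates 4 to 6, stand between 11.76 and 11.93.

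The 2 gels gave 1 call among the 9 genes, that of BCL2 with HEC. Tested against each other in limma, HEC and CMC differed in 0 of the 9 genes, with differences from -0.66 (BAX, 95% interval -1.37 to 0.04) to 0.36 (BIK, -0.33 to 1.04). Unadjusted p under 0.05 was reached by BCL2, BAX and BAK1 with HEC.

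Among 14 other genes of the family and its partners, 3 rose with MALP2, 1 rose and 1 fell with imiquimod, and 2 fell with N-9. Of all 19775 genes, 5% rose and 4.6% fell with MALP2, 6.89% rose and 7.04% fell with imiquimod, and 6.65% rose and 13.2% fell with N-9. With MALP2, BID, whose protein links death receptors to the mitochondrion, rose by 0.56 (SE 0.119, limma adjusted p = 0.000420), and BCL2L2 (0.52) and BNIP3L (0.49) passed but not in the block fit (adjusted p = 0.108 and 0.187). With imiquimod, BNIP3L rose by 0.84 (6.42e-05) and BCL2L12 differed by -0.44 (0.0255, and 0.158 in the block fit). With N-9, BOK, a BAX-like protein, fell by 0.74 (0.00906), and BCL2L10 differed by -1.09 (0.0446, and 0.253 in the block fit). The median difference of the 14 was 0.28 with MALP2 and -0.08 with N-9, where the medians over all genes were 0.01 and -0.05.

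Of 12 measured genes of the machinery downstream of the pore, 1 rose with MALP2, 1 rose and 1 fell with imiquimod, and 2 fell with N-9, which can be read against the same shares of all genes. The median difference of the 12 was -0.08 with N-9, -0.04 with MALP2 and 0.01 with imiquimod. CASP9, the initiator caspase of the mitochondrial route, rose by 1.76 with imiquimod (SE 0.179, limma adjusted p = 2.32e-13), or 3.39-fold. CASP2, an initiator caspase, fell by 0.69 with imiquimod (3.51e-07) and by 0.77 with N-9 (2.10e-11). APAF1, the scaffold that activates CASP9, differed by 0.83 with MALP2 (0.0228) and by -0.58 with N-9 (0.0370), and neither held in the block fit (adjusted p = 0.102 and 0.111).

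Of 8 measured genes that block caspases or favor survival, 2 rose with each of the 4 immune stimuli, CFLAR and BIRC2, 3 fell with imiquimod, 2 rose with N-9 and 1 fell with HEC, where 0.774% of all genes rose with TNF-α, 1.92% with Pam3CSK4, and 0.536% fell with HEC. The median difference of the 8 was 0.26 with MALP2 and -0.00029 with imiquimod. CFLAR, which blocks caspase 8, rose by 2.06 with MALP2 (limma adjusted p = 5.59e-17), 1.40 with imiquimod (7.22e-10), 1.35 with Pam3CSK4 (1.76e-08) and 0.92 with TNF-α (0.00242). BIRC2, the ubiquitin ligase cIAP1, rose by 0.99, 0.89, 0.68 and 1.01 in the same order (limma adjusted p at most 0.000332). CFLAR also rose with N-9, by 0.65 (0.000443). BAG1, a chaperone partner of BCL2, fell by 1.07 with imiquimod (4.73e-06) and rose by 0.57 with N-9 (0.00407). The other two that were lower with imiquimod were BAG3, a co-chaperone, which fell by 0.61 (0.00335), and BIRC5 (survivin), which differed by -0.64 (0.0209, and 0.0564 in the block fit). BIRC7, an inhibitor of apoptosis, differed by -1.06 with HEC (0.0362, and 0.562 in the block fit).

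Of 13 genes of death receptors, their ligands, adaptors and caspases, 1 rose with each of TNF-α, Pam3CSK4 and MALP2. With imiquimod 3 fell, and with N-9 1 rose and 3 fell. Of all genes 0.774% rose with TNF-α, 1.92% with Pam3CSK4 and 5% with MALP2. With imiquimod 7.04% of all genes fell, and with N-9 6.65% rose and 13.2% fell. TNFSF10, the ligand TRAIL, rose by 1.64 with MALP2 (limma adjusted p = 0.00388). Its differences of 1.66 with TNF-α and -1.26 with imiquimod passed but were lost in the block fit (adjusted p = 0.164 and 0.0871), as was that with Pam3CSK4 (2.83-fold, 0.113). TNFRSF10D, a decoy receptor for TRAIL, fell by 1.41 with N-9 (0.000436), and differed by -1.18 with imiquimod (0.0285, and 0.0965 in the block fit), and TNFRSF21 fell by 1.28 with imiquimod (4.75e-06). Of 10 genes known to act on the stability or location of members, 1 rose and 4 fell with N-9, 2 rose with MALP2 and 2 with imiquimod, where 6.65%, 13.2%, 5% and 6.89% of all genes did so. The 1 that rose with N-9 was MAPK8 (JNK1), by 0.69 (9.60e-06), and MAPK8 also rose by 0.82 with imiquimod (1.58e-05). The median difference of the 10 with N-9 was -0.12, where that of all genes was -0.05.

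Transcription factors known to act on the members were measured through 15 genes, with the pseudokinase TRIB3 counted among the 15. Of these, N-9 raised 9, imiquimod 8, MALP2 6, Pam3CSK4 3 and TNF-α 3, and 1 fell with MALP2 and with imiquimod. Of all genes 6.65% rose with N-9, 6.89% with imiquimod, 5% with MALP2, 1.92% with Pam3CSK4 and 0.774% with TNF-α. The median difference of the 15 was 0.53 with N-9 and 0.43 with imiquimod, where the medians over all genes were -0.05 and 0.03. RELB, an NFκB subunit, rose by 1.52 with TNF-α (limma adjusted p = 4.48e-08), 1.31 with Pam3CSK4 (2.52e-07), 1.22 with imiquimod (2.02e-07) and 1.05 with MALP2 (1.27e-05). With N-9 it differed by 0.54 (0.00626, and 0.104 in the block fit). NFKB2, a partner of RELB, rose by 1.19 with Pam3CSK4 (2.72e-05) and 1.02 with MALP2 (0.000140).

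DDIT3 (CHOP), a factor of the stress response of the endoplasmic reticulum, rose by 4.91 with N-9 (SE 0.201, limma adjusted p = 1.05e-38), or 30.1-fold, by 3.49 with imiquimod (SE 0.240, 2.25e-22) and by 1.13 with MALP2 (0.000484). ATF3 rose by 3.78 with N-9 (4.83e-20) and 2.10 with imiquimod (1.50e-06), ATF4 by 1.26 (3.11e-07) and 1.04 (0.000751), and TRIB3 by 1.59 (5.01e-08) and 1.18 (0.00120). These 4 genes rose with both compounds. With imiquimod BCL2L11 and PMAIP1 differed from GM by 0.21 and 0.11 (limma adjusted p = 0.438 and 0.858). Both were lower than with N-9 in the direct tests given with each gene. Whether the 4 genes act on BCL2L11 or PMAIP1 in these cells was not tested. JUN rose by 0.98 with N-9 (5.48e-06) and fell by 0.73 with imiquimod (0.00968) and by 0.74 with MALP2 (0.0123). FOXO3, a known activator of BCL2L11, rose by 0.33 with N-9 (0.000713), and whether it acts on BCL2L11 in these cells was not tested either.

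**Figure D5:**
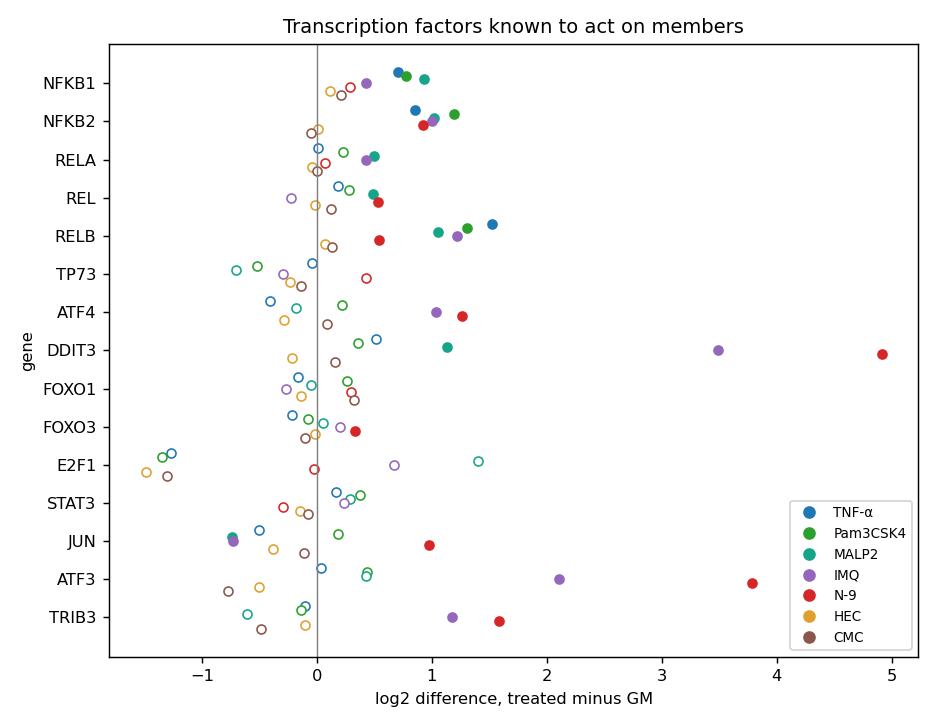
Log2 difference from GM (horizontal axis) for 15 genes (rows), transcription factors and TRIB3, with a color for each of the 7 treatments. Points are filled where the difference passed (limma, adjusted p under 0.05) and open where it did not. DDIT3 and ATF3 reach 4.91 and 3.78 with N-9, and RELB lies between 1.05 and 1.52 with the 4 immune stimuli.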

How the data were processed

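Affymetrix U133 Plus 2.0 arrays measured RNA of Vk2/E6E7 cells. The deposited values are log2 signals, 1 per probeset and array, made by the authors before deposit. Processing notes of the submitters give MAS5 with GCOS 1.3, but RMA in GeneSpring is described in the paper's methods. MAS5 signals carry more noise in dim probesets.

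The deposited log2 values of 103 of 105 arrays were quantile normalized and tested over 54613 probesets (62 controls left out) in limma 3.58.1 under R 4.3.3, with 1 mean per group and Benjamini-Hochberg adjustment, on groups taken from the labels. The test was also run on simulated data, with noise drawn independently for each array, so the likeness within runs was not part of it. For N-9 against GM it recovered 43 of 100 simulated differences of size 1 and 89 of 100 of size 2, with 6 false calls. In the real comparison 17.4% of probesets passed, a far larger share than was changed in the simulation. The adjustment depends on that share, so these counts do not give the recovery in the real comparison. The number of arrays limits the precision. No filter on dim probesets was applied. In the platform annotation 41097 probesets have 1 gene, 1801 several and 11777 none.

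The members and the lists of other genes were chosen with earlier results of these data known. All members were reported by every probeset, with per-array values where a change exceeded 2-fold, and with at most 4 passing members of a list above 2-fold per treatment. Smaller passing members of the lists, and per-array values of the other members, were added after their values were seen. Likeness was given for the 3 members with the widest range of group means. Promoters of MCL1 and BIK were not used here. Alternatives were another probeset, no normalization, an offset of 16, a filter at a mean of 6, runs as a random block, GM replicates 1 to 9 with and without a replicate block, all arrays, trended variance, arrays left out, and the methods' analysis of variance with a 2-fold threshold.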

Additional observations from a re-analysis of the deposited data

Results flagged for a closer look

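In 63 groups of 4 to 10 arrays (9 genes, 7 treatments), 9 had 1 array far from the rest, where chance alone flags about 1 group in 20. For BCL2A1 these were MALP2 replicate 6, at a log2 signal of 12.64 above the other 5 arrays, and CMC replicate 3, at 2.62. For BCL2 207004_at they were TNF-α replicate 2 at 6.37, MALP2 replicate 6 at 5.07, imiquimod replicate 6 at 5.62 and N-9 replicate 4 at 3.28, each the lowest of its group. For BCL2L11 1553096_s_at they were imiquimod replicate 3 at 8.67 and CMC replicate 1 at 8.51, also the lowest, and CMC replicate 1 was the lowest for BIK as well, at 5.82.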

How the results depend on the processing

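The numbers of the 9 genes that passed (TNF-α 1, Pam3CSK4 2, MALP2 2, imiquimod 1, N-9 5, HEC 1, CMC 0) stayed within 1.5 times under an offset of 16, the filter on dim probesets, trended variance and without GM replicate 15. Read from the second brightest probeset they were 4 with MALP2, 3 with imiquimod and 0 with HEC. Without quantile normalization HEC gave 0. With runs as a random block Pam3CSK4 gave 1 and HEC 0, as with all 105 arrays. With the methods' analysis of variance, whose calls need a 2-fold change, Pam3CSK4 gave 1, MALP2 1, N-9 2 and HEC 0. Leaving out 1 treated array gave 1 to 2 genes with Pam3CSK4 and 0 to 1 with HEC. The shares of all genes given in the results are not from these alternatives.

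Against GM replicates 1 to 9 alone the counts were 4 with MALP2, 4 with Pam3CSK4, 3 with TNF-α, 3 with imiquimod, 3 with N-9, 1 with CMC and 0 with HEC. With the replicate block as well they were 4, 4, 4, 4, 3, 1 and 0. The shares of all genes given in the results are not from these fits either. Replicates 1 to 6 of N-9 and of HEC deviated from their group means together with the same-numbered GM arrays (correlations 0.25 to 0.33 and 0.26 to 0.34), replicates 7 to 9 did not (-0.24 to -0.15 and -0.17 to -0.10), and of the pairs of the other treatments 1 reached 0.1. Of these 9 GM arrays the same-numbered one was the best match for 3 of 9 N-9 arrays, 2 of 9 HEC arrays and 0 of the others, and one of the same run for 6 and 8. The labels number the arrays as biological replicates but do not say whether equal numbers mark a pair, so the pairing is not known. The sign of BAX 211833_s_at turned in these fits: against the 9 GM arrays without a block the difference was 1.29 with MALP2, 1.22 with CMC, 1.19 with Pam3CSK4, 1.06 with N-9 and 1.12 with TNF-α, and with the replicate block 1.58, 1.22, 1.48, 1.06 and 1.45. BAX in these 9 arrays averaged 7.55 against 9.21 in the others.

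The rises of BCL2A1 with TNF-α, Pam3CSK4, MALP2 and imiquimod and those of BCL2L11 1553096_s_at and PMAIP1 204285_s_at with N-9 passed under every alternative run for them (15 to 19 each), with differences of 3.47 to 4.41, 4.45 to 5.45, 5.61 to 6.61, 2.36 to 3.33, 1.31 to 1.66 and 1.33 to 1.57. Falls of BCL2 with HEC and N-9 lost the call in 11 and 6 of 19.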
